A study of Rattus norvegicus with 30 samples.

Results

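Glucose production and glycogen turnover in the liver were followed here through 9 genes: Pck1, Fbp1, Pc, Ppargc1a, Gys2, Pygl, Gbe1, Ppp1r3b and Ppp1r3c. Every probe set annotated to one of these symbols and to no other gene was taken, which gave 11 of the 31042 probe sets tested and covered 8 of the 9 genes. Ppargc1a was read by 3 probe sets, Ppp1r3b by 2 and the other 6 genes by 1 each, and Ppp1r3c had no probe set under its symbol alone in the annotation used here. The 30 rats, 10 per group with 1 array each, were Sprague-Dawley females aged 10 weeks, and RNA came from the left lobe of the liver. Control rats were left unhandled. Rats of the handled groups were weighed, held in a Broome restrainer and gavaged with water each day, for 1 day or for 4 days, and were bled repeatedly from the tail vein. All rats had free access to feed. The control group and the 1-day group were killed on day 2, but the 4-day group on day 5, when no unhandled rats were taken, so that 4 days of handling and the later day cannot be told apart. The comparison asks whether routine handling changes transcripts that serve glucose output and glycogen storage in the liver.

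The liver keeps blood glucose steady between meals by releasing glucose from glycogen and by making it anew from lactate, glycerol and amino acids. Insulin favours glycogen storage and restrains glucose production, whereas glucagon acts through cAMP and PKA to raise both glycogen breakdown and transcription of gluconeogenic genes, and glucocorticoids add to that transcription. Pc (pyruvate carboxylase) and Pck1 (cytosolic phosphoenolpyruvate carboxykinase) start the route from pyruvate, Fbp1 (fructose-1,6-bisphosphatase) acts further along it, and Ppargc1a encodes the coactivator PGC-1alpha. Gys2 is the liver glycogen synthase, Gbe1 the branching enzyme and Pygl the liver glycogen phosphorylase, and Ppp1r3b and Ppp1r3c encode subunits that bring protein phosphatase 1 to glycogen.

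RefSeq windows of the 250 bases before the annotated start (build GRCr8) were at hand for 7 of the 9 genes: Pck1, Fbp1, Ppargc1a, Gys2, Pygl, Gbe1 and Ppp1r3c. They were searched on both strands for TGACGTCA and TTACGTCA (spellings of the cAMP response element), CACGTG (an E-box) and TGTTTAC (a forkhead motif), which occur in 1.59%, 0.75%, 5.59% and 3.21% of 33469 rat windows of the same length. TTACGTCA was found for Pck1 with its first base at -93 from the start, TGACGTCA for Ppargc1a at -181 and CACGTG for Ppp1r3c at -54, without overlap between matches, and the Fbp1, Gys2, Pygl and Gbe1 windows held none of the 4 spellings. Windows of 4 genes are shown 5′ to 3′ on the strand of the gene, and capitals mark a match. Of these, Pck1 and Ppargc1a hold a match. For Gys2 and Pygl, control rats 1 to 3 lay on opposite sides of the other rats in the values below. The Pck1 window is chr3:182348322-182348571 (plus strand), the Ppargc1a window chr14:63634058-63634307 (plus strand), the Gys2 window chr4:177137237-177137486 (minus strand) and the Pygl window chr6:94476220-94476469 (minus strand). A match is a description of the letters and not evidence of binding.
Pck1: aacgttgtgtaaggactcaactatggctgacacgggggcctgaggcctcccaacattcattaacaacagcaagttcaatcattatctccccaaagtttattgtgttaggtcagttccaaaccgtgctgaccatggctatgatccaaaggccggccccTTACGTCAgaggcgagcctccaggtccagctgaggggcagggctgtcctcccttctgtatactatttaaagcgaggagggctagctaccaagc
Ppargc1a: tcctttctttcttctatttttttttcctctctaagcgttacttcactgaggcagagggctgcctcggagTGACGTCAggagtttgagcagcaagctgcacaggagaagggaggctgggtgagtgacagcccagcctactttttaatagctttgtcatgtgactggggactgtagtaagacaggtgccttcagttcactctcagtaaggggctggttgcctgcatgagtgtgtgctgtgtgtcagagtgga
Gys2: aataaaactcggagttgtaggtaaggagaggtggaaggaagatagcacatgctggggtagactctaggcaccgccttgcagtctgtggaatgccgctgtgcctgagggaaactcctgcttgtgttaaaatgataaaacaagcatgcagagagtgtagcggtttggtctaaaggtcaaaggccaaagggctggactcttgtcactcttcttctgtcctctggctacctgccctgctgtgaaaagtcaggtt
Pygl: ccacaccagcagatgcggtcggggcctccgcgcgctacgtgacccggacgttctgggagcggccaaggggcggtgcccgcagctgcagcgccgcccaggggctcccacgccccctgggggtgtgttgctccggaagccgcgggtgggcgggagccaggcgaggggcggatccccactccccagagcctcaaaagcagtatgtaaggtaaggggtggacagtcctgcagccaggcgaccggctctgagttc

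Values are intensities on a linear scale on which each array has a mean of 1, and the median over all probe sets and arrays was 0.122. Differences are given on the log2 scale, as handled minus control with the groups as the labels give them. As a check of direction, 25 genes that the study names as changed by handling were looked up, those with a probe set under their symbol alone. In these files 25 of 25 ran opposite to the direction in which the study describes them, after 1 day and after 4 days, so each direction of a handling difference below holds for the deposited labels. A probe set is called changed where limma, fitted across all 31042 probe sets, gave a Benjamini-Hochberg adjusted p under 0.1. Control rats 1, 2 and 3 stood apart from the other 27 rats across the arrays. They were singled out from the same data, so values that set them against the other rats are a description without a test, and each handling result is given with all 10 control rats and with control rats 4 to 10 alone. In bulk liver RNA, fewer cells of a type and less RNA per cell cannot be told apart.

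Transcripts of the gluconeogenic enzymes were low in control rats 1 to 3 and nearly level in all other rats. The intensity of Pck1 was 15.1, 10.8 and 37.8 in control rats 1, 2 and 3, whereas control rats 4 to 10 ranged from 41.2 to 50.7 with a median of 45.1. Rats handled for 1 day had a Pck1 intensity of 43.3 to 48.4 (median 45.9) and rats handled for 4 days one of 41.6 to 48.8 (median 44.3). The 3 low rats lay below all 27 others, control rat 3 by a small margin, and the handled groups overlapped control rats 4 to 10. The intensity of Pc was 2.20, 2.32 and 2.30 in control rats 1, 2 and 3, 3.29 to 3.94 (median 3.40) in control rats 4 to 10, 3.18 to 4.14 (median 3.63) in the 1-day group and 2.90 to 3.88 (median 3.54) after 4 days. Fbp1 had 26.95, 25.1 and 28.1 in control rats 1, 2 and 3, 32.4 to 36.9 (median 35.7) in control rats 4 to 10, 32.2 to 36.9 (median 35.0) after 1 day and 29.4 to 34.2 (median 32.7) after 4 days. For both genes the 3 control rats lay below every other rat. Against control rats 4 to 10 the mean of the 3 rats was lower by 2.46-fold for Pck1, by 1.56-fold for Pc and by 1.31-fold for Fbp1.

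**Figure D1:**
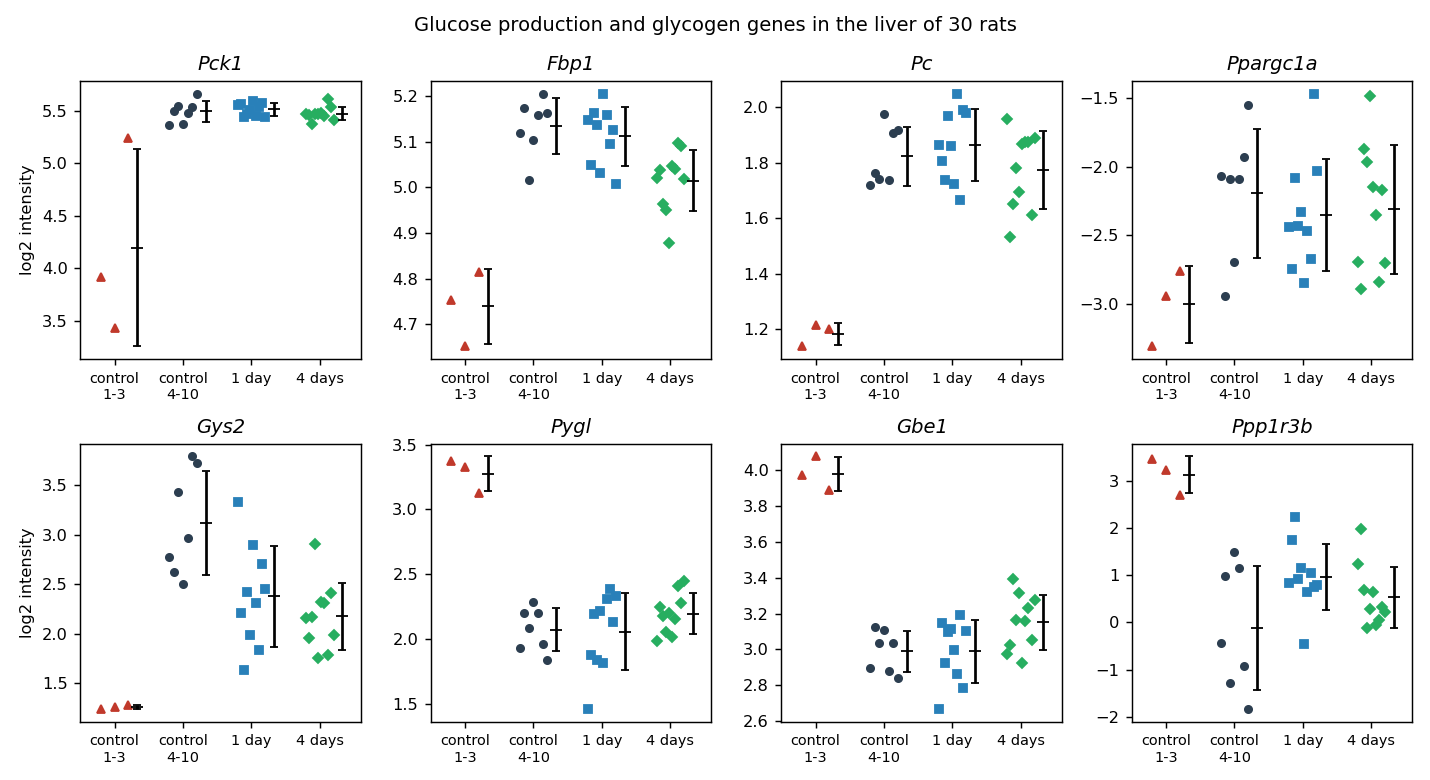
Log2 intensity of 8 genes in each of the 30 rats, each gene by its brightest probe set (1 panel per gene, 1 point per rat). Control rats 1 to 3 are drawn apart from control rats 4 to 10 and from rats handled for 1 and 4 days. Control rats 1 to 3 sit below all others for Pck1, Fbp1, Pc and Gys2 and above all others for Pygl, Gbe1 and Ppp1r3b. For Ppargc1a (1395518_at) they overlap the others.

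The coactivator gene Ppargc1a was dim on these arrays, with values around the overall median of 0.122, so single values are imprecise. Probe set 1370089_at had 0.0191, 0.0303 and 0.0468 in control rats 1, 2 and 3, 0.0604 to 0.141 (median 0.0932) in control rats 4 to 10, 0.0477 to 0.117 (median 0.0755) after 1 day and 0.0506 to 0.132 (median 0.0978) after 4 days. Here the 3 rats lay below all others, the highest of them only just. Probe set 1393743_at had 0.0484, 0.0943 and 0.0634 in control rats 1, 2 and 3 and 0.162 to 0.346 (median 0.231) in control rats 4 to 10. After 1 day it ranged from 0.0707 to 0.285 and after 4 days from 0.0740 to 0.284, so the handled rats reached into the range of the 3, with 23 of the 27 other rats above all 3. Probe set 1395518_at had 0.101, 0.130 and 0.148 against 0.130 to 0.341 (median 0.235) in control rats 4 to 10, 0.139 to 0.361 after 1 day and 0.135 to 0.357 after 4 days, again with 23 of 27 other rats above. All 3 probe sets thus had a lower mean in control rats 1 to 3 than in control rats 4 to 10, by 2.998-fold, 3.32-fold and 1.75-fold in that order. The probe sets ran together within groups, with a Pearson r of 0.62 to 0.81 over 27 rats (control rats 1 to 3 left out, group means taken off).

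Gys2, the synthase, was the member with the widest gap among those low in the 3 rats. Its intensities were 2.36, 2.39 and 2.42 in control rats 1, 2 and 3, the lowest values of all 30 rats and within a narrow band. Control rats 4 to 10 had 5.67 to 13.9 (median 7.81), rats handled for 1 day 3.11 to 10.1 (median 5.15) and rats handled for 4 days 3.37 to 7.50 (median 4.48). The mean of the 3 rats was 3.63-fold below that of control rats 4 to 10. Medians of the handled groups lay between, and most handled rats were under the range of control rats 4 to 10. After 1 day rats 1, 6 and 9 reached that range (10.1, 7.46 and 6.53), and after 4 days rat 4 alone did (7.50).

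Pygl and Gbe1 showed the opposite placement. Pygl, which frees glucose units from glycogen, had intensities of 10.4, 10.0 and 8.72 in control rats 1, 2 and 3, of 3.58 to 4.87 (median 4.25) in control rats 4 to 10, of 2.76 to 5.24 (median 4.49) after 1 day and of 3.97 to 5.45 (median 4.57) after 4 days. Gbe1, which sets the branch points of glycogen, had 15.7, 16.9 and 14.8 in control rats 1, 2 and 3, 7.17 to 8.71 (median 8.20) in control rats 4 to 10, 6.35 to 9.12 (median 8.28) after 1 day and 7.58 to 10.5 (median 8.93) after 4 days. All 3 control rats lay above all 27 others for both genes, with means 2.30-fold and 1.98-fold above control rats 4 to 10. The synthase and the phosphorylase were therefore displaced in opposite directions in the same 3 livers, and the branching enzyme went with the phosphorylase.

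Ppp1r3b had the largest displacement of the members. On probe set 1384262_at the intensity was 10.97, 9.35 and 6.48 in control rats 1, 2 and 3 and ranged from 0.281 to 2.79 (median 0.743) in control rats 4 to 10. It ranged from 0.731 to 4.70 (median 1.84) after 1 day of handling and from 0.916 to 3.96 (median 1.24) after 4 days. The 3 rats lay above all 27 others and their mean was 9.47-fold above that of control rats 4 to 10, which themselves spread 9.95-fold from lowest to highest. The dim probe set 1371161_at, below the overall median in most rats, had 0.0985, 0.130 and 0.149 in the 3 rats and 0.0184 to 0.0530 in control rats 4 to 10, and 25 of the 27 other rats lay below all 3.

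Counted over the members, control rats 1 to 3 lay apart from the other 27 rats at 8 of 11 probe sets, above them at 3 and below them at 5. Over all 31042 probe sets the 3 rats lay apart at 5.98%, above at 2.95% and below at 3.03%. The rule that fixed the members names these rats, and the members were chosen with earlier results of these data known, so the count of 8 is a description of how these genes were placed.

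No member was called after 1 or 4 days of handling, except Gys2 after 4 days once control rats 1 to 3 were left out. With all 10 control rats, 0 of 11 probe sets passed after 1 day, when 0.0902% of all probe sets did, and 0 of 11 passed after 4 days, when 0.657% did. At an unadjusted p under 0.05 there were 4 members after 1 day against 9.33% of all probe sets, and 0 after 4 days against 11.3%. Without control rats 1 to 3 there were 3 after 1 day (Ppargc1a 1393743_at, Gys2 and Ppp1r3b 1384262_at) against 8.50%, and 2 after 4 days (Fbp1 and Gys2) against 11.4%. With all 10 control rats the t-test of the methods and the rank-sum test also called 0 members in each comparison. No member had values that did not overlap between a handled group and the 10 control rats, which was so for 0.0193% of all probe sets after 1 day and for 0.0322% after 4 days. Against control rats 4 to 10 there were likewise 0 members, with 0.110% and 0.190% of all probe sets.

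The 4 members under the unadjusted threshold after 1 day differed little from control once control rats 1 to 3 were left out. Pck1 was 0.41 higher on the log2 scale (SE 0.20, adjusted p = 0.522) and Pc 0.23 higher (SE 0.10, adjusted p = 0.466), whereas Pygl was -0.38 (SE 0.17, adjusted p = 0.501) and Gbe1 -0.30 (SE 0.14, adjusted p = 0.512) relative to control. All 10 rats handled for 1 day lay on that side of the control mean for each of the 4 genes. Against control rats 4 to 10 the same differences were 0.020 (SE 0.05), 0.041 (SE 0.07), -0.016 (SE 0.11) and 0.00054 (SE 0.08). After 4 days the log2 differences were 0.37 for Pck1, 0.14 for Pc, -0.24 for Pygl and -0.14 for Gbe1 with all control rats, and -0.021, -0.050, 0.12 and 0.16 without the 3. Both handled groups were compared with the same control rats, so the 2 sets of differences are not independent.

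**Figure D2:**
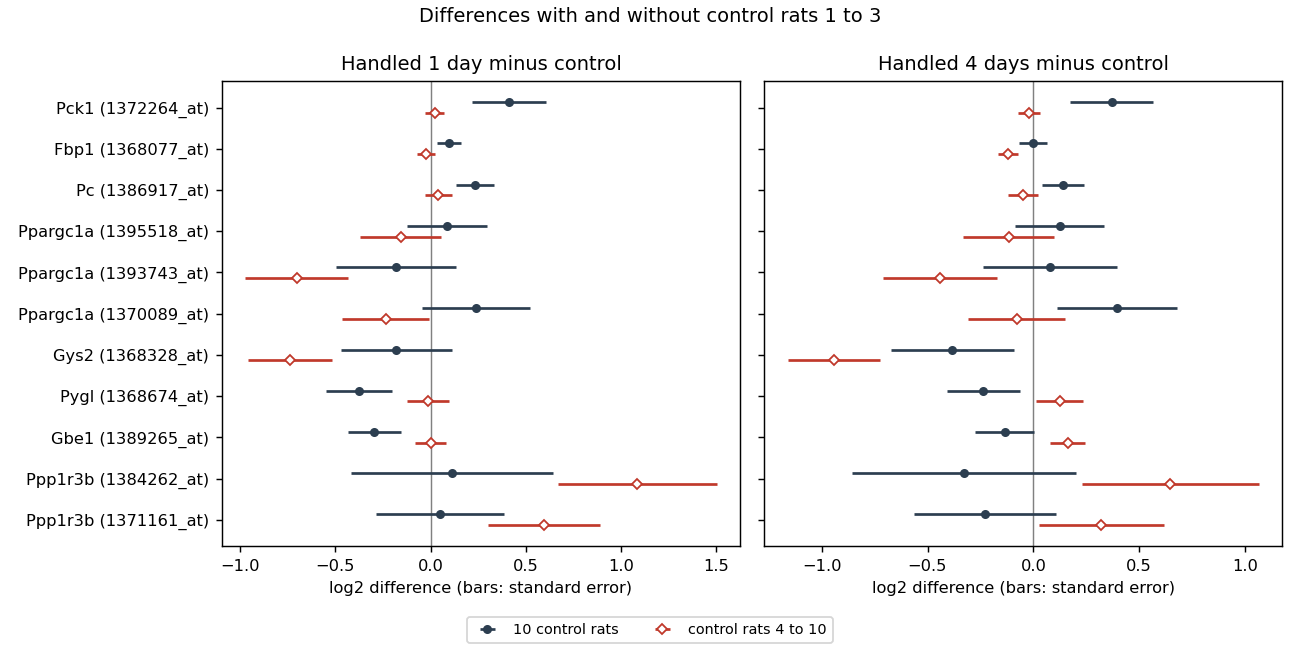
Log2 difference from control with its standard error for each of the 11 probe sets after 1 day (left) and 4 days (right) of handling. Filled points use all 10 control rats and open points control rats 4 to 10 alone. Pck1 after 1 day moves from 0.41 to 0.020 without control rats 1 to 3, and Gys2 after 4 days from -0.38 to -0.94.

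Gys2 was the 1 member called once control rats 1 to 3 were left out. With all 10 control rats it was -0.18 (SE 0.29, adjusted p = 0.891) after 1 day and -0.38 (SE 0.29, adjusted p = 0.658) after 4 days. Against control rats 4 to 10 it fell by 0.94 on the log2 scale after 4 days, or 1.92-fold (SE 0.22, adjusted p = 0.0545), and all 10 rats lay below the mean of those 7 control rats. After 1 day it was -0.74, or 1.67-fold lower in 9 of 10 rats, and did not pass (SE 0.22, adjusted p = 0.225). In that comparison 0.329% of all probe sets were called after 1 day and 0.828% after 4 days, 0.406% as falls. The 3 rats left out had the 3 lowest Gys2 values of the study, so leaving them out raises the control mean, and the call rests on that choice. It was lost again without control rat 6, 9 or 10, at adjusted p-values of 0.147, 0.133 and 0.133. Ranges still overlapped, with control rats 4 to 10 at 5.67 and above and rats handled for 4 days at up to 7.50. That overlap came from rat 4 of the 4-day group alone, and the next highest value of the group was 5.30 (rat 9). Kupffer cell markers also ran lower in the 4-day group (median -0.33 over 7 genes against control rats 4 to 10, 0 called), and their part in this difference was not tested.

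The remaining members did not pass either with or without the 3 rats. Ppp1r3b (1384262_at) was 0.11 (SE 0.53, adjusted p = 0.967) after 1 day and -0.33 (SE 0.53, adjusted p = 0.866) after 4 days with all control rats, and 1.08 (SE 0.42, adjusted p = 0.428) and 0.65 (SE 0.42, adjusted p = 0.596) against control rats 4 to 10. Its standard errors were the widest among the members, so a change of the size of 1 log2 unit could not be resolved. Fbp1 had the narrowest errors. It was -0.0016 after 4 days with all control rats (SE 0.07, adjusted p = 0.996) and -0.12 against control rats 4 to 10 (SE 0.05, adjusted p = 0.307), where all 10 rats lay below the control mean. Ppargc1a ranged over its 3 probe sets from -0.18 to 0.24 after 1 day and from 0.077 to 0.40 after 4 days, and without the 3 control rats from -0.70 to -0.16 and from -0.44 to -0.079.

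Rats handled for 4 days did not differ detectably from rats handled for 1 day. None of the 11 probe sets passed, with adjusted p-values of 0.995 to 0.997, and 0.00% of all probe sets did. At an unadjusted p under 0.05 there were also 0 members, while 752 of all 31042 probe sets were higher and 799 lower. In the fit without control rats 1 to 3, 2 of the 11 were under that threshold, Fbp1 at -0.097 (SE 0.04, adjusted p = 0.810, lower in 10 of 10 rats) and Gbe1 at 0.16 (SE 0.07, adjusted p = 0.817). At that threshold the same fit had 931 of all 31042 probe sets higher and 953 lower. The largest log2 differences in size were -0.44 for Ppp1r3b (1384262_at, SE 0.53) and -0.28 for its dim probe set (SE 0.34). For Pck1 the difference was -0.041 (SE 0.20) and for Gys2 -0.20 (SE 0.29). These 4 SEs come from the fit of all 30 rats, where control rats 1 to 3 widen the spread shared by the groups. No control rat enters the differences themselves. Without the 3 rats the SE was 0.046 for Pck1, 0.20 for Gys2 and 0.38 for Ppp1r3b (1384262_at).

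Few genes that work beside the members passed the test after handling. Over all probe sets, 0.0902% were called after 1 day and 0.657% after 4 days with all 10 control rats. Of 22 other genes of gluconeogenesis with a probe set, 0 were called after 1 day and 1 after 4 days, Sdsl (serine dehydratase-like), which fell by 0.64 on the log2 scale (SE 0.14, adjusted p = 0.0421) and lay below the control mean in 10 of 10 rats. Its decrease was also called without control rats 1 to 3 (-0.60, adjusted p = 0.0937), though not in a fit of the 2 groups alone (adjusted p = 0.106). With the Gapdh ratio described below as a covariate the decrease was not called either (-0.49, adjusted p = 0.478), but that ratio moved with handling. Of 20 genes of glycolysis and glucose uptake, Khk (ketohexokinase, the first step in fructose use) fell by 0.36 after 4 days (SE 0.10, adjusted p = 0.0996), and 0 were called after 1 day. That call was lost without control rats 1 to 3, in which Khk was high (6.59 to 7.21 against 3.53 to 5.24 in all other rats), at -0.19 and an adjusted p of 0.289. It was also lost when any 1 of 26 single rats was left out. Over this list 16 of 20 genes were lower after 1 day (median -0.13, 5 at an unadjusted p under 0.05) and 14 after 4 days (median -0.11). Of all 31042 probe sets 15776 were lower after 1 day, 1509 of them at that threshold, and 15357 after 4 days. Without control rats 1 to 3 the list had 13 and 12 genes lower (medians -0.059 and -0.021), 2 and 4 of them at that threshold. G6pc1, the glucose-6-phosphatase gene, is read only by probe sets that carry other symbols too and was left out.

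Of 23 other glycogen genes, 0 were called after either time of handling, when 0.0902% (1 day) and 0.657% (4 days) of all probe sets were. After 4 days Gyg1 (glycogenin, the primer of glycogen synthesis) was -0.27 (SE 0.08, adjusted p = 0.141), the phosphorylase kinase subunit Phka2 -0.42 (SE 0.21, adjusted p = 0.462) and the muscle glycogen synthase Gys1 -0.52 (SE 0.28, adjusted p = 0.489). Gyg1 was called under 5 of 14 alternatives. Of 35 genes of hormone and transcription control, 0 were called. Foxo1, a transcription factor restrained by insulin, was 0.58 higher after 4 days (SE 0.16, adjusted p = 0.131) and was called under 5 of 14 alternatives. Hnf4a, a factor that maintains hepatocyte identity, was 0.20 higher (SE 0.07, adjusted p = 0.235) and the glucocorticoid receptor gene Nr3c1 -0.18 (SE 0.07, adjusted p = 0.295). The median log2 difference over the members was 0.085 after 1 day and -0.0016 after 4 days, with -0.0035 and 0.0022 over all probe sets. Without control rats 1 to 3 the median over the members was -0.016 after 1 day, with the sign turned, and -0.050 after 4 days, with -0.0083 and -0.0035 over all probe sets.

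Leaving out control rats 1 to 3 added calls among these lists after 4 days, in genes named here because they passed and thus chosen after their values were seen. In that fit 0.828% of all probe sets were called after 4 days. Among the other genes of gluconeogenesis, Sds (serine dehydratase) fell by 2.47 on the log2 scale (SE 0.63, adjusted p = 0.0890) and Slc16a1 (a lactate and pyruvate carrier) rose by 0.34 (SE 0.09, adjusted p = 0.0776). Among the other glycogen genes, Gyg1 fell by 0.33 (adjusted p = 0.0860) and Ugp2, which makes the UDP-glucose that the synthase uses, fell by 0.38 (SE 0.10, adjusted p = 0.0937). Cry1, a clock repressor, rose by 1.07 (SE 0.23, adjusted p = 0.0419). With all 10 control rats and the settings used for calls, 0 of these 5 genes passed. For all 5, control rats 1 to 3 differed from control rats 4 to 10 in the same direction as the handled rats. Those log2 differences were -3.14 for Sds, 0.24 for Slc16a1, -0.19 for Gyg1, -0.83 for Ugp2 and 2.06 for Cry1. Leaving the 3 rats out thus moves the control mean away from the handled rats, and the calls depend on that choice. For Gyg1 the call did not rest on it alone, since Gyg1 was called under 5 of 14 alternatives, this one included. Over all 23 other glycogen genes after 4 days without control rats 1 to 3, 10 were higher and 13 lower, with a median of -0.057. The member Gbe1 was 0.16 higher there without passing.

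Control rats 1 to 3 also lay apart in some genes around the members. Over all probe sets they lay apart at 5.98%, above at 2.95% and below at 3.03%. The lists were chosen with earlier results of these data known, so the counts are a description. In glycolysis and glucose uptake they lay above all others at 5 of 20 genes and below at 0, and the 5 were Pgam1, Pklr, Khk, Pdk2 and Tkfc. Pklr, the liver pyruvate kinase that opposes the Pc and Pck1 step, had 3.84 to 7.76 in the 3 rats against 0.466 to 1.32 in the other 27, and was 5.34-fold above control rats 4 to 10. Among other genes of gluconeogenesis they lay above at 1 of 22 (Got2) and below at 4 (Ldha, Gk, Mpc2 and Slc16a7). Among other glycogen genes they lay above at 1 of 23 (Pgm1) and below at 1 (Gaa), near the shares over all probe sets. In hormone and transcription control they lay above at 4 of 35 (Prkaca, Adra1b, Mlxipl and Cry1) and below at 6 (Irs2, Sik2, Trib3, Igfbp1, Prkaa2 and Nr1d1). Igfbp1, a gene that insulin represses, had 3.17 to 9.63 in the 3 rats against 10.1 to 42.2, and Irs2, an adaptor of the insulin receptor that insulin also represses, had 0.176 to 0.790 against 0.964 to 2.66. Mlxipl, which encodes the glucose-responsive factor ChREBP, was 2.38-fold above control rats 4 to 10. The clock genes Nr1d1 and Cry1 were 7.66-fold below and 4.18-fold above.

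**Figure D3:**
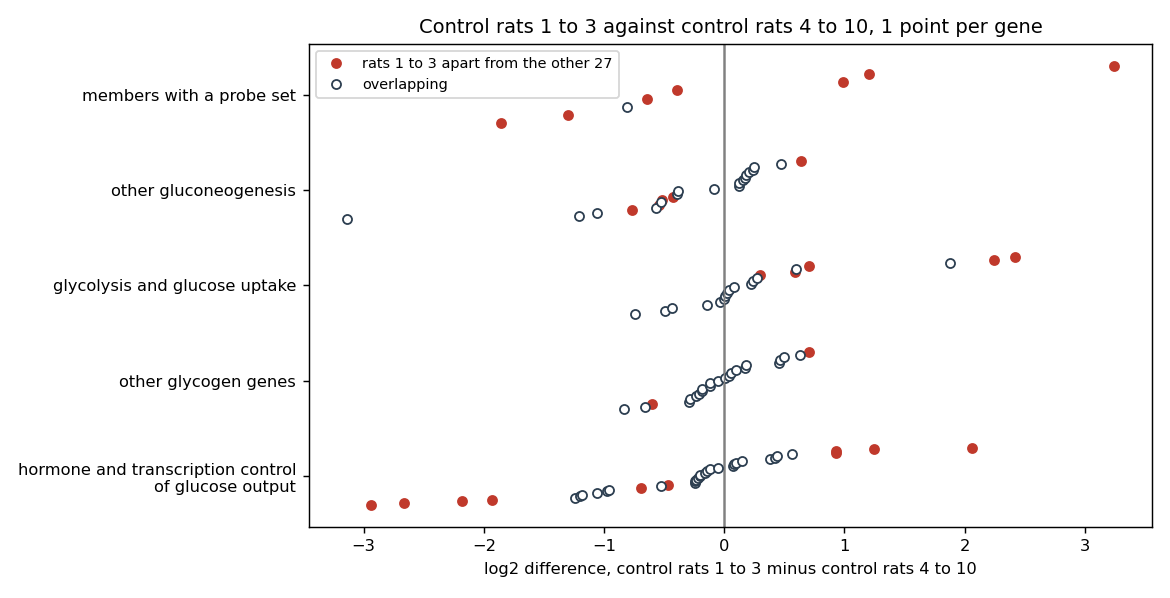
Log2 difference of control rats 1 to 3 from control rats 4 to 10 for each gene of the members and of 4 gene lists, 1 point per gene, with genes at which the 3 rats lay above or below all 27 other rats marked. The members spread from -1.86 for Gys2 to 3.24 for Ppp1r3b, and the 5 marked genes of glycolysis and glucose uptake all lie above 0.

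Within groups, with control rats 1 to 3 left out, members differed widely in how much they varied from rat to rat. The SD of log2 intensity over control rats 4 to 10 was 1.32 for Ppp1r3b (1384262_at) and 0.53 for Gys2, and 0.10 for Pck1, 0.11 for Pc and 0.06 for Fbp1. In the 20 handled rats (within group) it was 0.68, 0.43, 0.06, 0.14 and 0.07 in the same order. The brighter Ppp1r3b probe set thus varied more than 99.9% of all probe sets among the control rats and more than 94.5% in the handled rats, whereas Pck1 varied less than most, at the 9.03 percentile and the 0.586 percentile. Pck1 and Fbp1 lay at the 99.8 and 99.7 percentile of mean intensity, and the part of brightness in their small spread was not tested.

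Gys2 ran against Pygl and Ppp1r3b among the 27 rats. After group means were taken off, Pearson r was -0.67 (Spearman rho -0.61) for Gys2 and Pygl and -0.64 (rho -0.60) for Gys2 and Ppp1r3b, the largest in size of 28 pairs of members. Without the 2 rats farthest from the median of Gys2 they were -0.55 and -0.70. By group, r for Gys2 and Pygl was -0.72 in control rats 4 to 10, -0.73 after 1 day and -0.53 after 4 days, though in the control rats it was -0.37 without 2 rats. For Gys2 and Ppp1r3b it was -0.85, -0.66 and -0.29. For these pairs the signs are those of the placement of control rats 1 to 3, which did not enter. Some other pairs did not follow that placement. Fbp1 and Ppargc1a, both with lower means in the 3 rats, had r = -0.33 over the 27 rats, and Pck1 and Pc had -0.016. Pck1 and Gys2 had r = 0.47 (rho 0.45) over the 27 rats, with 0.82 in control rats 4 to 10, 0.51 after 1 day and -0.14 after 4 days. Pygl and Gbe1 had r = 0.46 (rho 0.40), or 0.22 without 2 rats. These values are descriptions, since both genes of a pair are read from the same array with the same scaling.

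**Figure D4:**
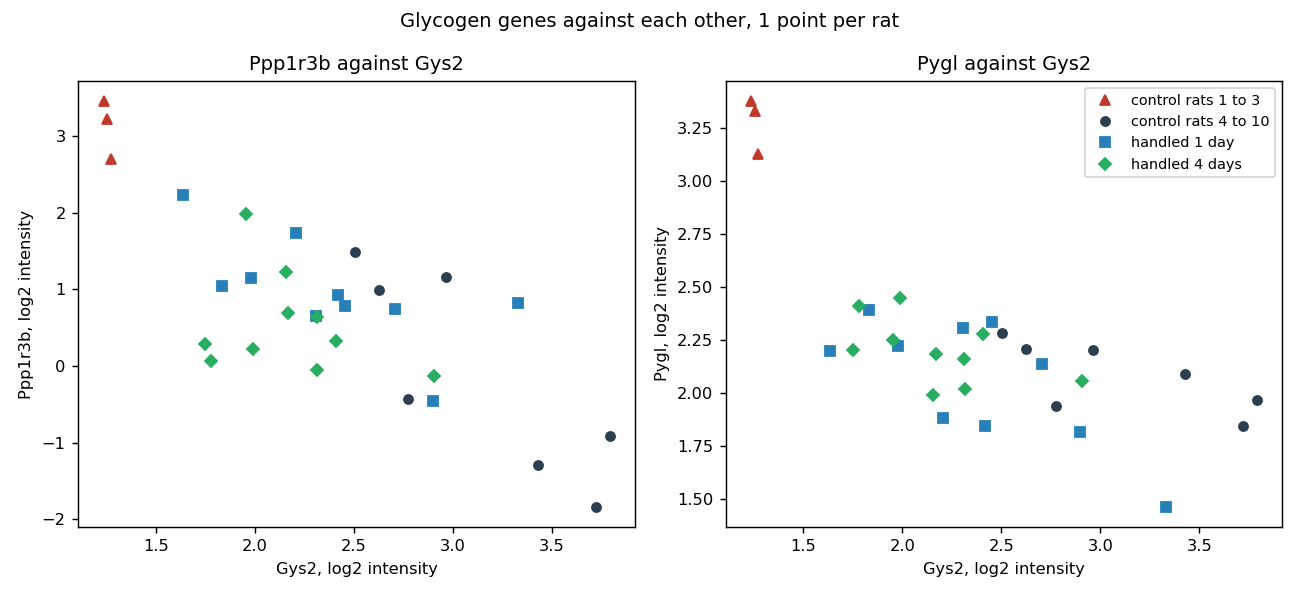
Intensity of Gys2 (x axis, log scale) against Pygl and Ppp1r3b (y axes, log scale) in each of the 30 rats, coloured by group with control rats 1 to 3 drawn apart. Over the other 27 rats, with group means taken off, Pearson r was -0.67 for Pygl and -0.64 for Ppp1r3b.

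Of 20826 probe sets with 1 symbol, those most like a member over the same 27 rats were named by rule, the 2 with the highest Pearson r for each. For Gys2 they were Copb1 (r = 0.83, rho 0.82) and Cpt1a (r = 0.82, rho 0.84), the gene of the carnitine palmitoyltransferase that admits fatty acids to mitochondria, and r was 0.78 and 0.80 without the 2 farthest rats. For Pygl they were Hes6 (r = 0.81) and Ddc (r = 0.79), and for Ppp1r3b they were Ppp1r15b (r = 0.81, rho 0.63) and Tob2 (r = 0.80, rho 0.79). For Pck1 they were Asic1 (0.78) and Tob1 (0.77), for Pc Myzap (0.77) and Aff2 (0.74), for Fbp1 Sowaha (0.67) and C3 (0.67), for Ppargc1a Rrs1 (0.75) and Snhg4 (0.74), and for Gbe1 Tkfc (0.73) and Mad2l1 (0.71). The highest of so many values is high in part through selection.

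The tissue label held, with 8 of 10 hepatocyte markers measured and a summed intensity of 386 to 449 over all 30 rats, and none of the 8 set control rats 1 to 3 apart. The sum over 7 of 10 Kupffer cell markers was 24.2 to 28.6 in control rats 1 to 3, 23.8 to 38.3 in control rats 4 to 10, 24.8 to 40.6 in the 1-day group and 21.0 to 29.4 in the 4-day group, with 0 of 7 called. After 4 days 6 of the 7 were lower than in control (median -0.24, 4 at an unadjusted p under 0.05), also without control rats 1 to 3 (median -0.33, 5 at that threshold), and 7 of 7 were lower than after 1 day (median -0.26, 4 at that threshold). The sum over 8 of 10 sinusoidal endothelium markers was 17.4 to 18.7 in control rats 1 to 3, 19.98 to 21.4 in control rats 4 to 10, 19.7 to 23.2 in the 1-day group and 17.2 to 21.5 in the 4-day group, with 0 called, and 1 of the 8, Pecam1, set control rats 1 to 3 below all others. Of 9 T and NK cell markers 1 was called after 4 days, Nkg7, which fell by 0.42 on the log2 scale (adjusted p = 0.0902). Over all probe sets 0.657% were called in that comparison. Of the stellate, bile duct, neutrophil, erythroid and adipose markers 0 were called in any comparison. Among 5 adipose markers Cidea was low in control rats 1 to 3 (0.194 to 0.354 against 0.311 to 1.13 in all other rats, with overlap). No marker was listed at 0. As a sign of RNA integrity, the Gapdh control probe sets at the 3′ and 5′ ends were compared, and the log2 of their ratio was 0.64 to 0.69 in control rats 1 to 3, 0.55 to 0.70 in control rats 4 to 10, 0.66 to 0.83 in the 1-day group and 0.70 to 0.96 in the 4-day group. The ratio thus moved with handling and not with the 3 control rats, and with it as a covariate 0 of 11 members were called in each comparison. Since the ratio moved with the groups, that fit cannot tell RNA integrity and handling apart, and the count was 0 without it too.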

How the data were processed

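Liver RNA of 30 rats was hybridised by the authors to Affymetrix rat genome arrays, 1 per rat. The deposited table holds 1 intensity per probe set and array, linear rather than log, with a mean of 1 on every array; the authors used Affymetrix GCOS for quality checks and analysis and Rosetta Resolver for ratios, and the exact summary and scaling of the deposited values are not given in the sources used here. The authors' own tests used log10 ratios, which were left aside. After 57 control probe sets were removed from 31099, 31042 were tested. The annotation used here gives 1 gene symbol for 20826 of these, several for 436 and none for 9780, and only the first were named. No 2 arrays were identical (highest correlation 0.976). The number of arrays limits the precision.

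Groups followed the labels. The log2 of each intensity, with no offset, entered a single limma model of all 3 groups (limma 3.58.1 under R 4.3.3, two-sided). P-values were adjusted by Benjamini-Hochberg over all probe sets, with calls at an adjusted p under 0.1. The model was tested on simulated data. Members and gene lists were chosen with earlier results of these data known. Named genes are the members, the 2 probe sets most like each, and of each list the genes called or up to 3 with the smallest p against control. A list gene is read by its brightest probe set. Alternatives were an offset of 0.05 or of 1, quantile normalization, weighted arrays, a trend of variance with intensity, a replicate block, fits of the compared groups alone, the methods' t-test, a rank-sum test, the Gapdh ratio as a covariate, removal of the dimmest 40% of probe sets, 1 probe set per gene, a threshold of 0.05, and leaving out control rats 1 to 3 or each rat in turn. Promoter windows came from RefSeq (GRCr8), and figures were made with matplotlib 3.10.9 under Python 3.11.15.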

Additional observations from a re-analysis of the deposited data

How the results depend on the processing

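The count of members called was 0 in each comparison under every alternative run, leaving out any 1 rat included (0 to 0), except that leaving out control rats 1 to 3 gave 1 call after 4 days, Gys2. Of 1437 recomputed differences of the members 1380 kept their direction and 57 reversed, none of them past the threshold in either direction.

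Without control rats 1 to 3, differences from control reversed after 1 day for Fbp1 (-0.022), Gbe1 (0.00054), Ppargc1a 1395518_at (-0.16) and 1370089_at (-0.24), and Hnf4a (-0.014). After 4 days they reversed for Pck1 (-0.021), Pc (-0.050), Pygl (0.12), Gbe1 (0.16), Ppargc1a 1395518_at (-0.12), 1393743_at (-0.44) and 1370089_at (-0.079), and Ppp1r3b 1384262_at (0.65) and 1371161_at (0.32). Array weights reversed Ppargc1a 1395518_at after 1 day (-0.023) and, after 4 days, Ppargc1a 1393743_at (-0.14) and Ppp1r3b 1384262_at (0.11) and 1371161_at (0.049). The rank-sum test, as a difference of medians, reversed Ppargc1a 1395518_at (-0.042) and Ppp1r3b 1384262_at (-0.20) after 1 day and Ppargc1a 1393743_at (-0.016) and Gbe1 (0.086) after 4 days. An offset of 1 reversed Ppp1r3b 1384262_at (-0.14) and 1371161_at (-0.011) after 1 day and Ppargc1a 1393743_at (-0.0055) after 4 days, and an offset of 0.05 reversed Ppp1r3b 1371161_at after 1 day (-0.039). The Gapdh ratio as a covariate reversed Ppargc1a 1393743_at after 1 day (0.034) and Fbp1 (0.022) and Ppp1r3b 1384262_at (0.045) after 4 days. Leaving out 1 rat gave, with reversals, -0.014 to 0.18 for Ppargc1a 1395518_at, -0.19 to 0.40 for Ppp1r3b 1384262_at and -0.12 to 0.22 for 1371161_at after 1 day, -0.042 to 0.019 for Fbp1 and -0.11 to 0.21 for Ppargc1a 1393743_at after 4 days, and -0.051 to 0.14 for Ppargc1a 1395518_at between 4 days and 1 day. The cause was not tested.

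The decrease of Gys2 after 4 days against control rats 4 to 10 was recomputed under alternatives chosen after seeing the data. It was called under 11 of 12, not at an adjusted p under 0.05 (-0.94), and ranged from -1.04 to -0.83 when 1 rat was left out. Replicate numbers gave little sign of pairing: of 30 same-numbered pairs across groups, 1 had a correlation of deviations over 0.1 (median 0.047, range -0.038 to 0.12). Differently numbered pairs were not compared, so weak pairing cannot be judged. With the replicate block 0, 0 and 0 members were called in the 3 comparisons, and Gys2 against control rats 4 to 10 had an adjusted p of 0.0683. Leaving out the dimmest 40% of probe sets removed Ppargc1a 1370089_at and Ppp1r3b 1371161_at, which have no value there. Signal near the overall median limits what Ppargc1a and 1371161_at can show.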
